A study of Sus scrofa with 8 samples.

Results

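The genes described are 8 members of the LIF, JAK and STAT3 signalling pathway, namely LIF, LIFR, IL6ST, OSMR, JAK1, STAT3, SOCS3 and PIM1. They were chosen by name, and the locus of each, with 10 kb on either side, was taken from the pig RefSeq gene table of assembly Sscrofa11.1. A locus was found by symbol for 7 of the 8, all but LIFR, among 16298 named protein-coding genes of chromosomes 1 to 18 and X. H3K27ac, an acetylation of histone H3 that marks active promoters and enhancers, was mapped by ChIP-seq in 2 kinds of pig cell. The pgEpiSC are stem cells from the pre-gastrulation epiblast, labelled embryonic day 10, and the pEF are embryonic fibroblasts, labelled day 30 and fetal. There were 2 H3K27ac libraries per type, named pgEpiSC 1, pgEpiSC 4, pEF 1 and pEF 2, each with its own input library. The labels name no genotype, treatment or culture medium, and whether either culture contained LIF is not stated in the sources used here. Nor do they state if the libraries within a cell type came from separate lines, animals or cultures, so the p-values below measure the spread between these libraries, which may be technical.

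LIF is a secreted cytokine of the IL6 family. It binds its own receptor LIFR together with the signalling chain gp130, encoded by IL6ST, and OSMR can pair with gp130 in the same way for the related cytokine oncostatin M. Receptor-bound kinases, JAK1 foremost, then phosphorylate the transcription factor STAT3, which enters the nucleus and switches on targets that include its own feedback inhibitor SOCS3 and the survival kinase PIM1. In the mouse this pathway sustains naive embryonic stem cells, while stem cells of the later epiblast rely mainly on FGF and activin signals.

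The data are lists of islands, stretches of the genome in which ChIP reads cluster, with the ChIP and input reads inside each. The lists held 57790 to 74208 islands and 29.7 to 46.4 M ChIP reads. Islands covered 408 and 414 Mb in the pgEpiSC libraries and 273 and 275 Mb in the pEF libraries. Their median fold enrichment over input was 1.80 and 1.67 in pgEpiSC and 3.47 and 3.46 in pEF, so pgEpiSC islands covered more of the genome and stood less far above input. Of 6 epiblast and pluripotency markers, 5 had a longer acetylated length in pgEpiSC, with summed lengths of 140 to 150 kb against 13.6 to 16.4 kb. OTX2 and SALL4 had no island in pEF. Of 6 fibroblast markers, 4 were longer in pEF, with 29.6 to 62.2 kb in pgEpiSC against 248 to 249 kb, and COL1A2, COL3A1 and TWIST1 had no island in pgEpiSC. Hypoblast and endoderm markers summed to 46.3 to 55.5 kb in pgEpiSC and 23.2 to 27 kb in pEF, trophectoderm markers to 12.6 to 13.6 and 44.8 to 59.6 kb, endothelial markers to 67.3 to 72.3 and 103 to 128 kb, and blood markers to 69.2 to 82.8 and 32.8 to 42.5 kb. By limma, 2 of 5 hypoblast and endoderm markers were longer in pgEpiSC (GATA4 and FOXA2) and 1 in pEF (PDGFRA), 1 of 4 trophectoderm markers was longer in pEF (GATA3), and 2 of 5 endothelial markers were longer in pgEpiSC (CDH5 and PECAM1) and 1 in pEF (ERG). FOXA2 had 22.7 and 20.1 kb in pgEpiSC, with pEF lacking islands there, and SOX17, CDX2, KDR and CD34 had no island in any of the 4 libraries. The part that these differences play in the results at the pathway genes was not tested.

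Acetylated length is the number of kilobases of a gene and its 10 kb flanks that islands cover. It was longer in pgEpiSC for PIM1, JAK1, IL6ST and STAT3, and the difference did not pass the test for LIF, OSMR and SOCS3. Thus 4 of 7 members were called longer in pgEpiSC by limma at an adjusted p of 0.05, where 31.9% of all genes were, and 0 of 7 were called longer in pEF, where 10.9% of all genes were (42.8% in either direction). At an unadjusted p under 0.05 the pEF count was 1, which was OSMR. The median log2 difference, pgEpiSC minus pEF, was 0.77 over the 7 members and 0.46 over all 16298 genes. In a cell population, fewer cells carrying the mark and less of it per cell cannot be told apart.

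Which members pass depends on how island length is scaled. After subtraction of the median gene from each library, a shift of 0.63 on the log2 scale, limma called 0 members longer in pgEpiSC, with 1 at an unadjusted p under 0.05, and 2 longer in pEF, which were LIF and OSMR. The sign of the difference stayed at these 6 genes and turned at SOCS3, which was not called. Over all genes the split moved with it, from 5196 longer in pgEpiSC and 1773 in pEF to 3583 and 3853. Counting only islands enriched at least 2-fold, LIF, OSMR and JAK1 were longer in pEF and PIM1 was longer in pgEpiSC. Values for each gene are therefore given as length, as enrichment over input and as reads.

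**Figure D1:**
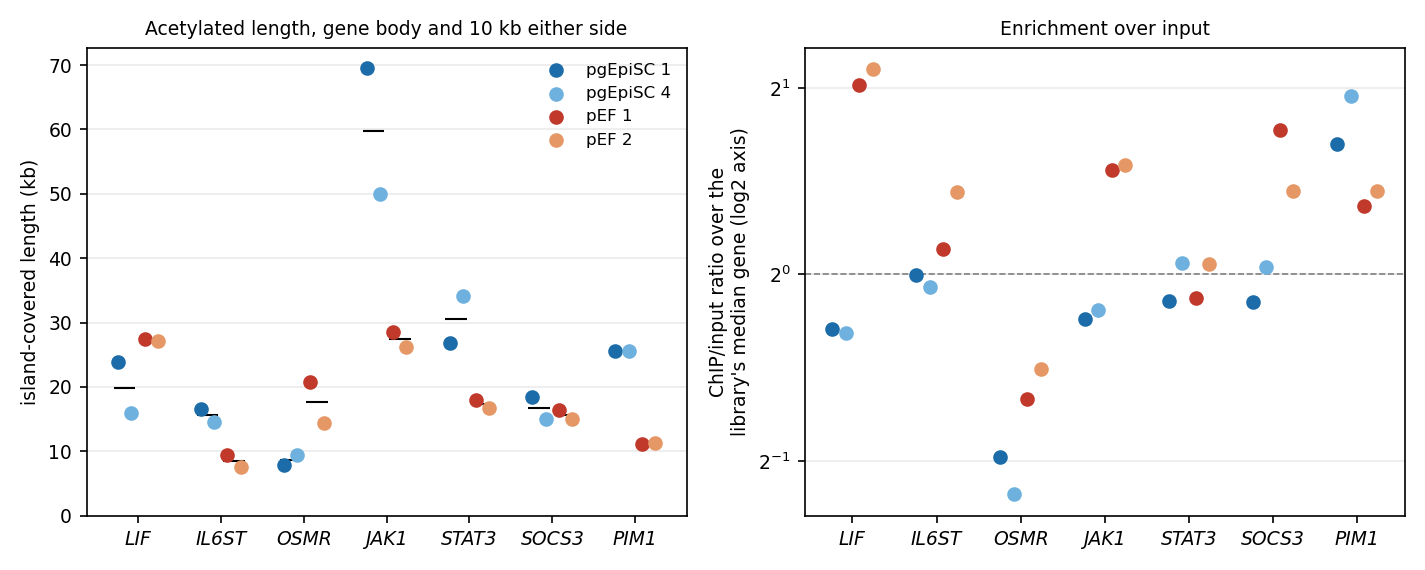
Left, acetylated length of the 7 located members in kilobases of the gene with 10 kb on either side; right, their ChIP to input ratio relative to the median gene of each library, on a log2 axis with the median dashed. Points are single libraries and, on the left, short lines are the means of each cell type. On the left PIM1, JAK1, IL6ST and STAT3 have both pgEpiSC points above both pEF points, LIF and OSMR the reverse, and SOCS3 has overlapping points; on the right OSMR lies below the line and PIM1 above it in all 4 libraries.

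LIF, the ligand, lay in 1 long, strongly enriched island in each pEF library and in shorter, weakly enriched islands in pgEpiSC. The gene (gene ID 399503) lies on chromosome 14 from 47221540 to 47239513. A single island covered it in each pEF library, 58.2 kb long in pEF 1 and 59.4 kb in pEF 2. These ran from -40.7 to 17.5 kb and from -42.3 to 17.1 kb, counted from the lower-coordinate end of the gene, since the gene table gives no strand. Only 54 of the 62261 islands of pEF 1, and 58 of the 57790 of pEF 2, were at least as long. Besides LIF they took in 1 other annotated gene, the long non-coding RNA LOC106505966. In the pgEpiSC libraries the longest island touching the LIF window was 14.4 and 5.80 kb, longer than 93.8% and 69.1% of the islands of those libraries.

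Inside the 38 kb window of LIF, islands covered 23.8 kb in pgEpiSC 1, 16 kb in pgEpiSC 4, 27.5 kb in pEF 1 and 27.1 kb in pEF 2. The means were 19.9 ± 5.52 kb (SD, n = 2) in pgEpiSC and 27.3 ± 0.283 kb (SD, n = 2) in pEF. Both pEF libraries lay above both pgEpiSC libraries, yet the log2 difference of -0.46 (SE 0.229) did not pass limma's test, with a Benjamini-Hochberg adjusted p of 0.205. It passed after centring (-1.09, adjusted p = 0.0261) and over islands enriched at least 2-fold (-4.19, adjusted p = 0.0302). Enrichment over input separated the types more widely, at 1.80 and 1.60 in pgEpiSC against 12.1 and 12.0 in pEF. Relative to the median gene of the same library these ratios were 0.816 and 0.805 in pgEpiSC and 2.02 and 2.15 in pEF, so LIF lay below the median in one cell type and above it in the other. The merged region, with further islands outside the window, spans 78.6 kb, and across it islands held 158, 118, 486 and 472 RPM (ChIP reads per 1 M reads in all islands of the library) in pgEpiSC 1, pgEpiSC 4, pEF 1 and pEF 2. Those reads are summed over the islands called in each library, which covered 67.6, 53, 65 and 67.6 kb in the same order, at a density of 2.33, 2.22, 7.47 and 6.98 RPM per covered kb. RPM add up to 1 M in every library, over 408 and 414 Mb of islands in pgEpiSC and 273 and 275 Mb in pEF. Mean density over all islands is therefore higher in pEF, and no density given here is scaled to that mean. The summed reads of the LIF region were lower in pgEpiSC by edgeR's quasi-likelihood test, with a log2 fold change of -1.78 (SE 0.210) and an adjusted p of 0.00339.

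**Figure D2:**
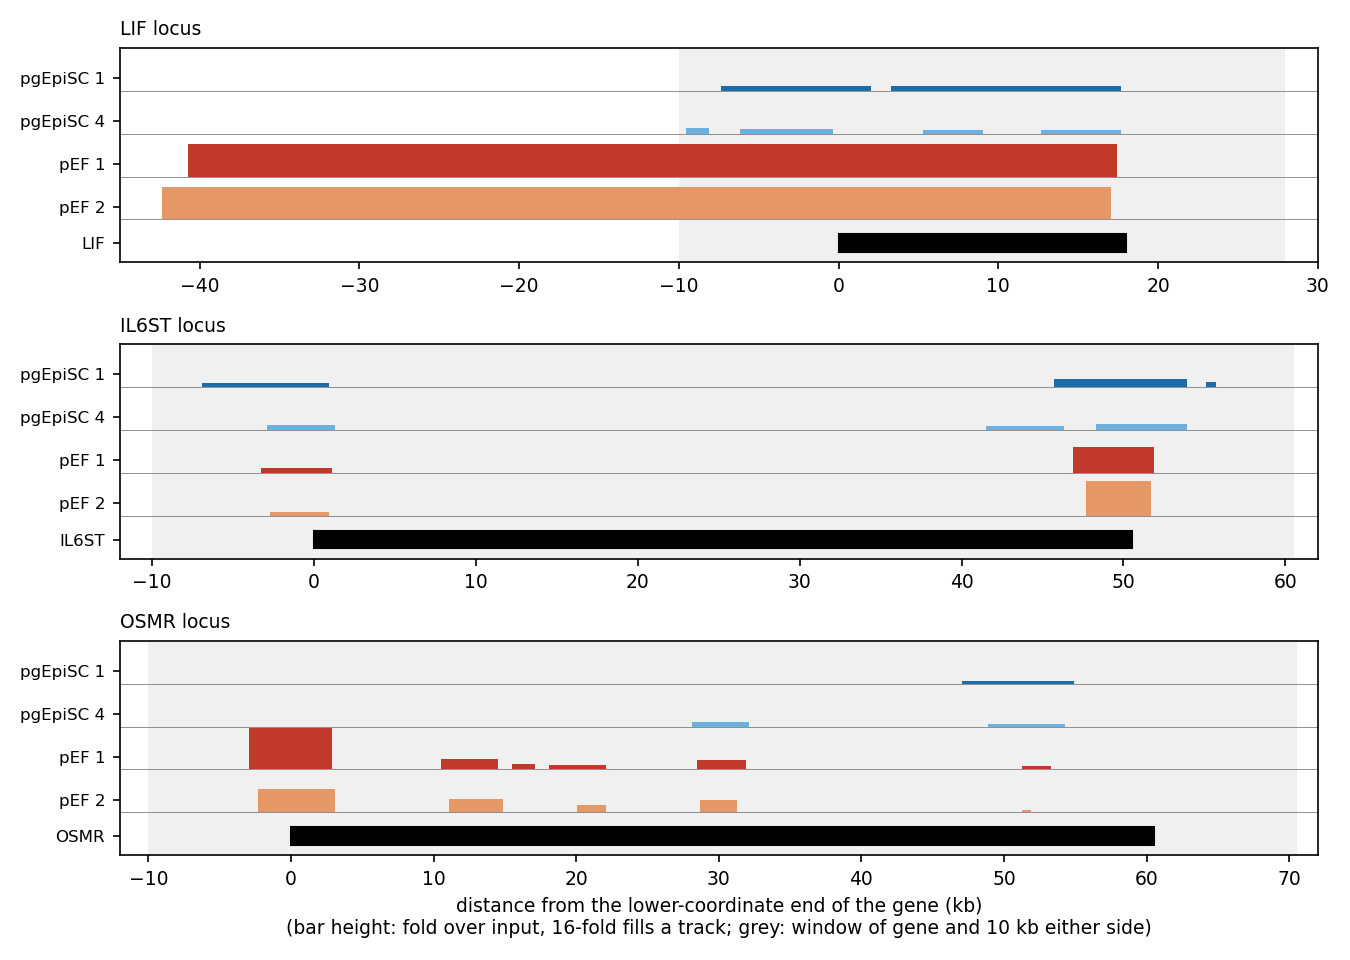
Islands touching the windows of LIF, IL6ST and OSMR in the 4 libraries, by distance in kilobases from the lower-coordinate end of each gene. Bar height is the fold enrichment of the island over input with the gene in black and its 10 kb flanks shaded. The pEF tracks at LIF hold a single tall bar, of 58.2 and 59.4 kb, where the pgEpiSC tracks hold 2 and 4 low bars. Islands that do not touch a window are not drawn, so blank track outside the shading does not mean that no island was called there.

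Of the receptors, IL6ST was acetylated at its ends in both cell types and OSMR at an end in pEF only. IL6ST (gene ID 100037294, chromosome 16, 35101304 to 35151832) encodes gp130, the chain shared by most receptors of this cytokine family. Its islands covered 16.6 and 14.6 kb in pgEpiSC 1 and 4 and 9.40 and 7.60 kb in pEF 1 and 2. The groups did not overlap, and limma gave a log2 difference of 0.81 (SE 0.169, adjusted p = 0.0403). The call was lost without any one of the 4 libraries (adjusted p from 0.0890 to 0.160), after centring (0.18, adjusted p = 0.510) and over islands enriched at least 2-fold (0.51, adjusted p = 0.299).

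The 2 end regions of IL6ST went opposite ways. At the lower-coordinate end, islands held 12.4 and 9.0 RPM in pgEpiSC and 5.28 and 3.95 in pEF, a log2 fold change of 1.23 (SE 0.340, edgeR adjusted p = 0.0349). At the higher-coordinate end they held 25.8 and 26.1 RPM in pgEpiSC and 42.5 and 38.2 in pEF, a log2 fold change of -0.62 (SE 0.191, edgeR adjusted p = 0.0483). The islands summed covered 7.80 and 4.20 kb in pgEpiSC and 4.40 and 3.60 kb in pEF at the first end, with 1.59 and 2.14 against 1.20 and 1.1 RPM per covered kb. At the other end the density was 3.15 and 2.51 in pgEpiSC and 8.50 and 9.56 in pEF, so each end differed in density the way it did in reads. The second call was lost without normalization factors (adjusted p = 0.162) and with DESeq2 (adjusted p = 0.0660). Enrichment at the higher-coordinate end was 9.69 and 13.1 in pEF, against 1.85 and 1.5 at the other end, so in the fibroblasts the mark was concentrated at the higher-coordinate end. At the lower-coordinate end enrichment was 1.43 and 1.86 in pgEpiSC, so there the types overlapped in enrichment.

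OSMR (gene ID 100519398, chromosome 16, 24041312 to 24101842) encodes the oncostatin M receptor. Its islands covered 7.80 and 9.40 kb in pgEpiSC 1 and 4 and 20.8 and 14.4 kb in pEF 1 and 2. The pEF libraries were both higher, but the log2 difference of -0.94 (SE 0.245) had a limma adjusted p of 0.0625. With genes of at least 1 kb mean length the adjusted p was 0.0412, and after centring the difference was -1.57 with an adjusted p of 0.00775. Over islands enriched at least 2-fold the difference was -3.86 (limma adjusted p = 0.00692). OSMR was the 1 member with a gene-end island in both pEF libraries and neither pgEpiSC library, a pattern shown by 4.48% of all genes. No member had one in both pgEpiSC libraries and neither pEF library, as 7.31% of all genes did. The other 6 had a gene-end island in all 4 libraries, as did 67.8% of all genes.

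That end island of OSMR lay at the lower-coordinate end, with 2261 ChIP reads and 15.4-fold enrichment in pEF 1 and 1718 reads and 8.90-fold enrichment in pEF 2. A second OSMR region, 47.1 to 54.9 kb into the gene, was called in all 4 libraries and held 43.4, 29.2, 14.2 and 7.37 RPM in pgEpiSC 1, pgEpiSC 4, pEF 1 and pEF 2. The log2 fold change was 1.78 (SE 0.390, edgeR adjusted p = 0.0183). Its ratio to input, however, was 1.12, 0.793, 1.13 and 0.950 in the same order, so ChIP reads there were about as frequent as input reads in every library. The islands summed covered 7.80 and 5.40 kb in pgEpiSC and 2.0 and 0.6 kb in pEF, and reads per covered kb were higher in pEF, at 5.56 and 5.41 against 7.08 and 12.3 RPM. The input reads inside it numbered 1212, 1178, 693 and 414. This region made up all 7.80 kb of acetylated length at OSMR in pgEpiSC 1 and 5.40 of the 9.40 kb in pgEpiSC 4.

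JAK1, the kinase, had the longest acetylated length of the members in pgEpiSC and its strongest peaks in pEF. The gene (gene ID 397202) spans 247 kb of chromosome 6, from 147320288 to 147567188. Islands covered 69.6 kb in pgEpiSC 1, 50.0 kb in pgEpiSC 4, 28.6 kb in pEF 1 and 26.2 kb in pEF 2. The JAK1 window, 267 kb, was the longest of the members, and these lengths were 26.1%, 18.7%, 10.7% and 9.82% of it. Both pgEpiSC libraries were above both pEF libraries, with a log2 difference of 1.08 (SE 0.205, limma adjusted p = 0.0338). Over islands enriched at least 2-fold the difference turned to -2.11 (adjusted p = 0.0138), and after centring it was 0.45 (adjusted p = 0.171). Without any one of the 4 libraries the adjusted p was 0.0584 to 0.169. Enrichment over all JAK1 islands was 1.86 and 1.74 in pgEpiSC and 8.84 and 8.42 in pEF.

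Within JAK1, 3 shared regions were lower in pgEpiSC by edgeR's test. The region at the lower-coordinate end held 17.6 and 16.5 RPM in pgEpiSC and 33.6 and 32.4 in pEF, with a log2 fold change of -0.93 (SE 0.205, adjusted p = 0.0184). A region 72.7 to 77.3 kb into the gene held 8.09 and 3.40 in pgEpiSC and 44.3 in each pEF library, with a log2 fold change of -2.94 (SE 0.444, adjusted p = 0.00633). That interior region had the highest enrichment of any JAK1 region, at 15.4-fold and 15-fold in pEF against 1.95-fold and 2.42-fold in pgEpiSC. A smaller one, 108 to 111 kb in, held 5.22 and 5.39 RPM in pgEpiSC and 23.4 and 27.6 in pEF, with a log2 fold change of -2.25 (SE 0.265, edgeR adjusted p = 0.00338). Reads per covered kb were also higher in both pEF libraries at these 3 regions, for instance 2.89 and 4.25 RPM in pgEpiSC against 9.62 and 9.63 at the interior region from 72.7 kb.

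The long coverage of JAK1 in pgEpiSC included weakly enriched islands further along the gene. The broad region from 171 to 202 kb was an island of 29.4 kb in pgEpiSC 1. Its summed reads did not pass edgeR's test (0.30, SE 0.238, adjusted p = 0.349), with 61.6 and 43.1 RPM in pgEpiSC against 47.3 and 39.0 in pEF. Its enrichment was 1.85 and 1.61 in pgEpiSC and 7.84 and 5.04 in pEF. At the higher-coordinate end, a region of 18 kb was called in both pgEpiSC libraries only, with 831 and 1140 ChIP reads and enrichment of 1.82 and 1.57. That end overlaps the neighbouring gene RAVER2, which encodes an RNA-binding protein and whose own window was covered for 50.2 and 27.5 kb in pgEpiSC and had no island in pEF (limma adjusted p = 0.00665).

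**Figure D3:**
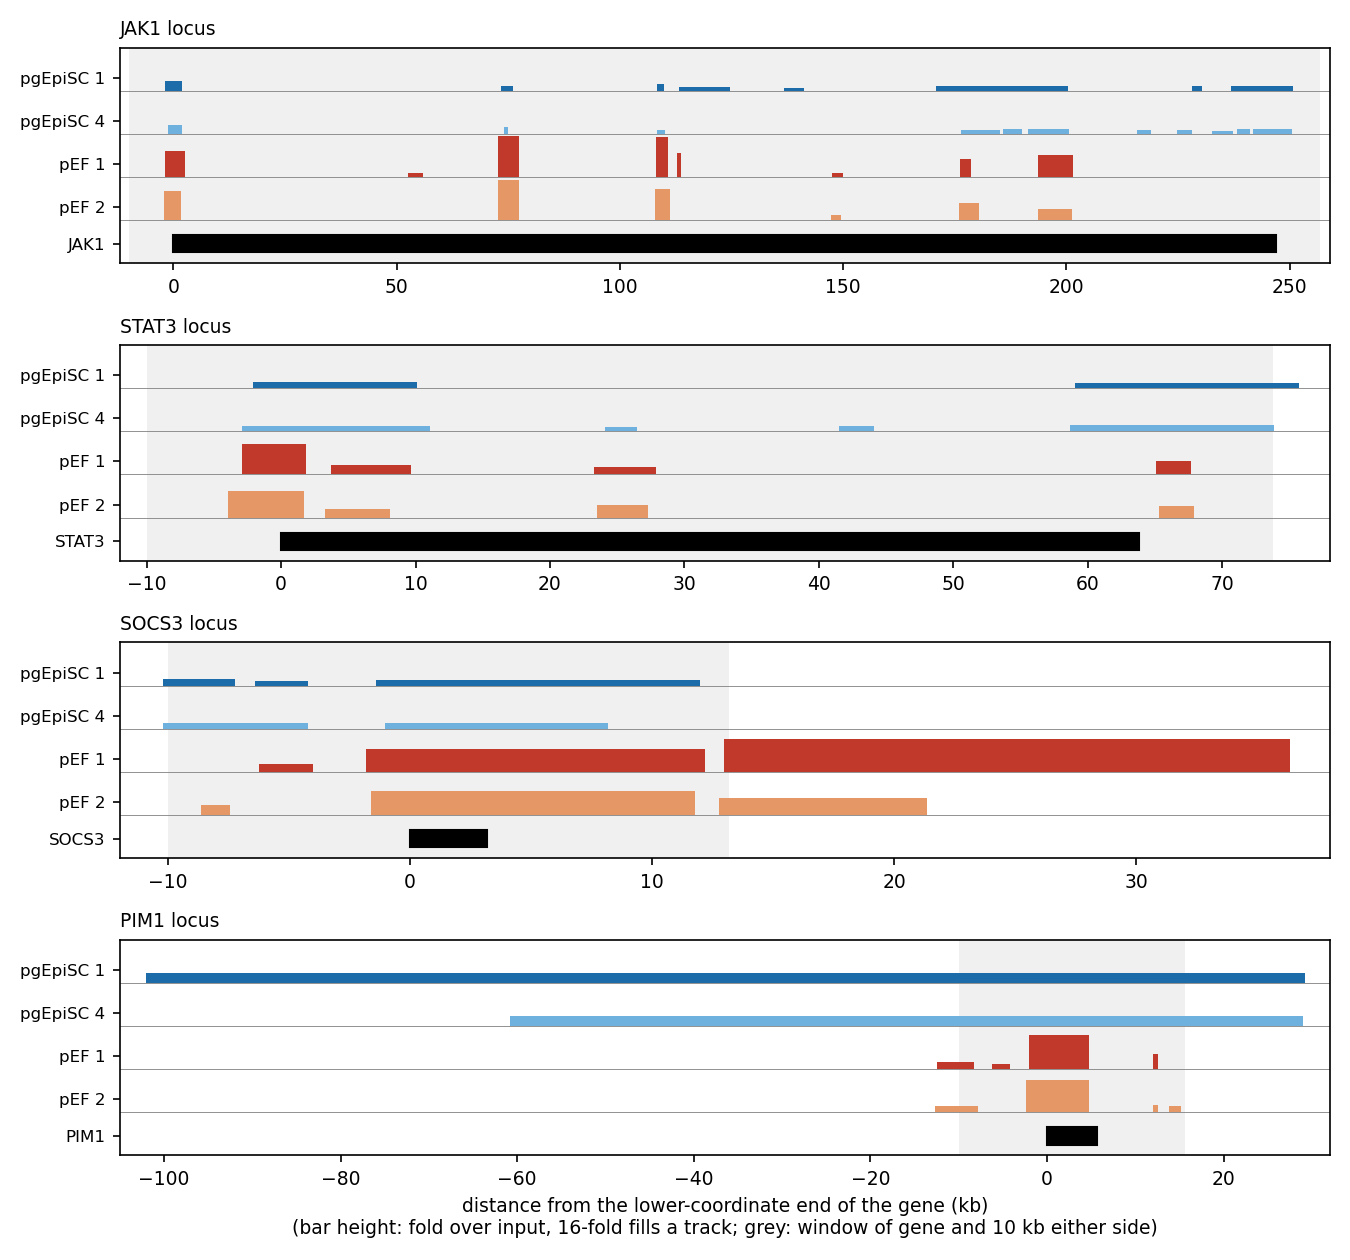
Islands touching the windows of JAK1, STAT3, SOCS3 and PIM1 in the 4 libraries, by distance in kilobases from the lower-coordinate end of each gene. Bar height is the fold enrichment over input with the gene in black and its 10 kb flanks shaded. JAK1 shows narrow tall bars in pEF and wide low bars in pgEpiSC, and PIM1 lies inside pgEpiSC islands of 131 and 89.8 kb. Islands that do not touch a window are not drawn, so blank track outside the shading, as left of PIM1 in pEF, does not mean that no island was called there.

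STAT3, the transcription factor of the pathway, was acetylated at its lower-coordinate end in both cell types and over a longer stretch at its higher-coordinate end in pgEpiSC. The gene (gene ID 733648) lies on chromosome 12 from 20407316 to 20471091. Islands covered 26.9 kb in pgEpiSC 1, 34.1 kb in pgEpiSC 4, 18 kb in pEF 1 and 16.8 kb in pEF 2. The groups did not overlap, and the log2 difference was 0.77 (SE 0.155, limma adjusted p = 0.0380). After centring it was 0.14 (adjusted p = 0.566), and over islands enriched at least 2-fold it was 0.12 (adjusted p = 0.938). With 5 kb flanks it was 0.51 (adjusted p = 0.118) and over the gene body 0.60 (adjusted p = 0.185). Without any one of the 4 libraries the adjusted p was 0.0659 to 0.174. Enrichment over all STAT3 islands was 1.99 and 2.07 in pgEpiSC and 5.50 and 5.82 in pEF.

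At the lower-coordinate end of STAT3, islands held 35.6 and 37.3 RPM in pgEpiSC and 48.9 and 45.9 in pEF, and the log2 fold change of -0.36 (SE 0.184) did not pass edgeR's test (adjusted p = 0.167). At the higher-coordinate end they held 37.1 and 46.3 in pgEpiSC and 6.46 and 7.09 in pEF. The log2 fold change of these sums was 2.64 (SE 0.258, edgeR adjusted p = 0.00226). They were taken over islands of 16.6 and 15.2 kb in pgEpiSC and 2.60 kb in each pEF library. Per covered kb the reads overlapped between the types, at 2.23 and 3.05 RPM in pgEpiSC and 2.48 and 2.73 in pEF, and enrichment was 1.82 and 2.18 against 4.90 and 4.45. The region was thus wider in pgEpiSC, while these densities are not scaled to the mean over all islands, which is higher in pEF. The end faces STAT5A, the next gene, which starts 3.13 kb away and encodes a related STAT factor. Acetylated length at STAT5A was 26.8 and 30.2 kb in pgEpiSC and 7.19 and 7.79 kb in pEF (log2 difference 1.80, limma adjusted p = 0.00596). The islands at this end lie in both windows, so STAT3 and STAT5A are not independent values.

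SOCS3, the feedback inhibitor of the receptor complex, had similar acetylated length in both cell types, while its regions differed in strength. The gene (gene ID 493186) is 3.18 kb long, on chromosome 12 from 3643832 to 3647015. Islands covered 18.4 and 15 kb in pgEpiSC 1 and 4 and 16.4 and 15 kb in pEF 1 and 2. The groups overlapped, and the log2 difference of 0.075 (SE 0.147) had a limma adjusted p of 0.727. The sign changed with the flank: with 20 kb on either side the difference was -0.52 (adjusted p = 0.0415).

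The region over the SOCS3 gene held 34.1 and 33.9 RPM in pgEpiSC and 87.0 and 77.4 in pEF, with a log2 fold change of -1.25 (SE 0.181, edgeR adjusted p = 0.00558). Next to it, from 12.8 to 36.6 kb, a region holding no annotated gene had 13.4 and 16 RPM in pgEpiSC and 175 and 133 in pEF. Its log2 fold change of -3.36 (SE 0.241, edgeR adjusted p = 0.00144) was the furthest from 0 among the 14 shared regions of the members. Islands covered 6.60 kb of it in each pgEpiSC library and 23.4 and 21.6 kb in pEF, with 2.04 and 2.42 against 7.46 and 6.17 RPM per covered kb and with enrichment of 1.39 and 1.54 in pgEpiSC and 12.3 and 9.48 in pEF. On the opposite side, from -10.2 to -4.0 kb, another region went the other way, with 11.6 and 14.9 RPM in pgEpiSC against 3.39 and 1.96 in pEF (2.33, SE 0.405, edgeR adjusted p = 0.00930). Those sums cover islands of 5.20 and 6.0 kb in pgEpiSC and 2.20 and 1.20 kb in pEF, at 2.22 and 2.48 against 1.54 and 1.63 RPM per covered kb. Enrichment at this flank was higher in pEF, at 2.18 and 2.22 against 2.85 and 3.61.

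PIM1, a serine/threonine kinase gene and known STAT3 target, lay inside a broad pgEpiSC domain. The gene (gene ID 100157844) is on chromosome 7 from 32788246 to 32793882. A single island filled its whole 25.6 kb window in each pgEpiSC library, running from -102 to 29.2 kb in pgEpiSC 1 and from -60.8 to 29.0 kb in pgEpiSC 4. At 131 kb and 89.8 kb, these were the 4th longest of 64620 islands and the 6th longest of 74208. They also contained the long non-coding RNA LOC102163428. In pEF the longest island at the window was 6.80 and 7.20 kb. It lay over the gene, with 2609 and 3014 ChIP reads and enrichment of 12.7 and 12.0.

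Islands covered 25.6 kb of the PIM1 window in both pgEpiSC libraries and 11.2 and 11.4 kb in pEF 1 and 2. The log2 difference was 1.12 (SE 0.0814, limma adjusted p = 0.00674). Length cannot exceed the window, so the pgEpiSC values are capped and their SD of 0 carries no information on spread. The call held over islands enriched at least 2-fold (1.25, adjusted p = 0.0224) and was lost after centring (0.49, adjusted p = 0.0725), over the gene body alone (0.21, adjusted p = 0.177), without pgEpiSC 1 (adjusted p = 0.0522) and without pgEpiSC 4 (adjusted p = 0.0550). Over the whole 131 kb region, in which pEF also has islands outside the window, islands held 616 and 598 RPM in pgEpiSC and 299.5 and 305 in pEF, a log2 fold change of 1.02 (SE 0.175, edgeR adjusted p = 0.00891). Islands covered 131 and 128 kb of it in pgEpiSC and 54.4 and 59 kb in pEF. Reads per covered kb were 4.69 and 4.67 RPM in pgEpiSC and slightly higher in pEF, at 5.51 and 5.17. The mean over all islands is also higher in pEF, and these densities are not scaled to it. PIM1 had the highest enrichment of the members in pgEpiSC, at 3.58 and 3.86, which was 1.63 and 1.94 times the median gene of those libraries. In pEF it was 7.73 and 7.65, or 1.29 and 1.37 times the median.

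Counted over all located members, 30 merged regions touched the 7 windows. Of these, 14 (46.7%) were called in all 4 libraries, where 20.3% of all 102641 regions were. All regions include those away from genes, and shares over regions that touch gene windows were not computed. JAK1 held the 1 region (3.33%) called in both pgEpiSC libraries only, where 21.9% of all regions were. The 4 (13.3%) called in both pEF libraries only were 3 at OSMR and 1 in JAK1, where 17.6% of all regions were, and the other 11 (36.7%, against 40.2%) had mixed calls. By edgeR on reads summed over islands, 5 of the 14 shared regions were higher in pgEpiSC (22.6% of 20796 shared regions were) and 7 were higher in pEF (23.3% were, 46% in either direction), and 2 did not pass. Mean reads per covered kb over all islands are higher in pEF, and enrichment is at 96.2% of all genes with islands in all 4 libraries. The shares over all shared regions were not computed for either measure, so the order of single regions is description only. The 7, and also the 2 that did not pass, were higher in both pEF libraries in reads per covered kb and in enrichment. Of the 5, the lower-coordinate end of IL6ST and the lower flank of SOCS3 were higher in both pgEpiSC libraries per covered kb, and none was in enrichment. Without one library these counts ran from 1 to 5 and from 4 to 7. Left without pgEpiSC 1 and then pgEpiSC 4, the calls lost were the OSMR interior region (edgeR adjusted p = 0.104 and 0.0574), the JAK1 lower-coordinate end (0.105 and 0.113), the region over SOCS3 (0.0560 and 0.0526) and the PIM1 domain (0.0769 and 0.0817). The lower flank of SOCS3 was lost without pgEpiSC 4 (0.0631). The lower-coordinate end of IL6ST was lost without pgEpiSC 1, pgEpiSC 4 or pEF 2 (0.181, 0.102 and 0.0783), and its higher-coordinate end without pgEpiSC 1, pgEpiSC 4 or pEF 1 (0.227, 0.186 and 0.0808). The calls at LIF, the 2 interior JAK1 regions, the higher-coordinate end of STAT3 and the upper flank of SOCS3 passed whichever library was left out.

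**Figure D4:**
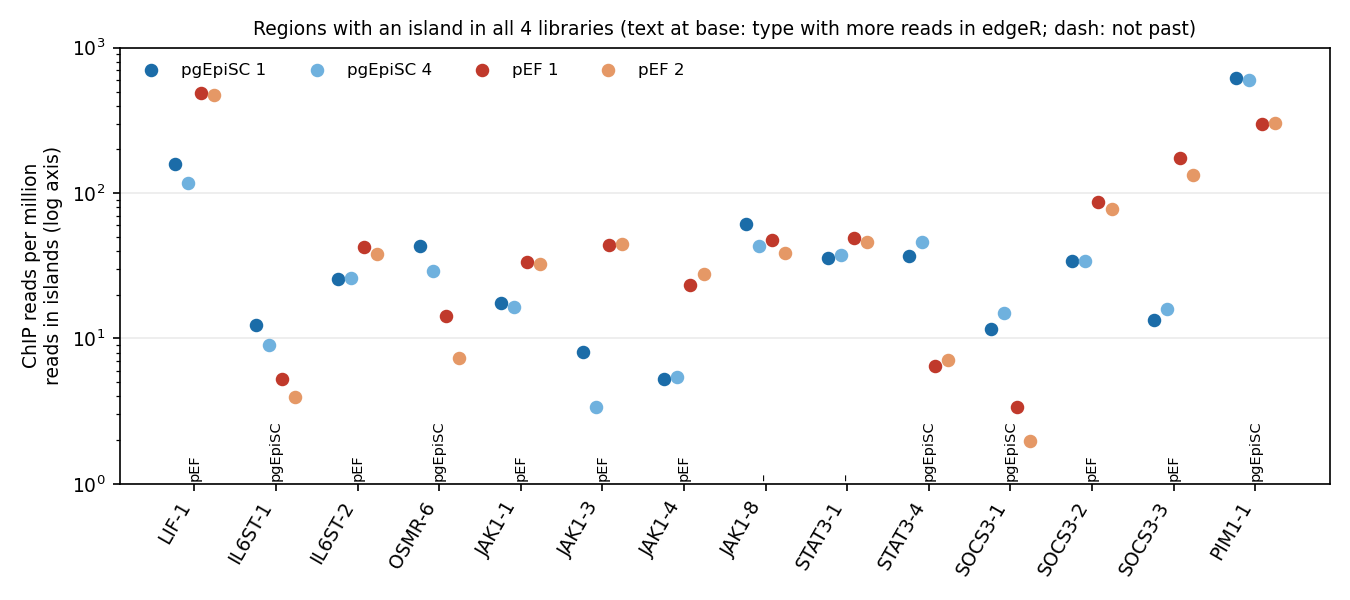
ChIP reads per 1 M island reads, on a log axis, in the 14 regions called in all 4 libraries at the members. Each point is a library and regions are named by gene and number, with the call of edgeR at the base. The SOCS3 upper flank (SOCS3-3), the JAK1 interior regions and LIF have higher pEF points, and the STAT3 higher-coordinate end (STAT3-4), where islands are wider in pgEpiSC, has higher pgEpiSC points.

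Enrichment over input was higher in both pEF libraries than in both pgEpiSC libraries at all 7 members, as it was at 96.2% of all genes with islands in all 4 libraries, while the reverse order held at 0.217%. Read against the median gene of the same library, 1 and 3 members lay above it in pgEpiSC 1 and 4, and 5 and 6 in pEF 1 and 2. PIM1 was above it in all 4 libraries, and OSMR was below it in all 4, at 0.507 and 0.441 times the median in pgEpiSC and 0.630 and 0.703 in pEF. Without its interior region at input level, OSMR had no island left in pgEpiSC 1, lay at 0.789 times the median in pgEpiSC 4 and lay above it in pEF, at 1.1 and 1.12 times. The region was left out for its low ratio and at OSMR alone, while the median kept all islands, so the comparison is not like for like. In length, both pgEpiSC libraries exceeded both pEF libraries at 4 members, where 52.3% of all genes did so. The reverse held at LIF and OSMR, where 21.9% of all genes did so.

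A list of 59 other genes of the pathway, of which 58 were located, was read from the same fit. By limma, 14 were longer in pgEpiSC, 8 were longer in pEF and 36 did not pass, beside the 31.9% and 10.9% of all genes, and the median log2 difference was 0.27, below the 0.46 of all genes. After centring the counts were 8 and 16, and over islands enriched at least 2-fold they were 1 and 13. A gene-end island was present in all 4 libraries at 50 of the 58, beside 67.8% of all genes. Without one library the counts were 2 to 6 and 1, and of the pathway genes named below CNTF and STAT5B kept their call whichever library was left out.

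Of 8 ligands related to LIF, 3 were longer in pEF and 1 in pgEpiSC. CNTF, ciliary neurotrophic factor, had no island in either pgEpiSC library and 17.2 and 17.4 kb in pEF (limma adjusted p = 0.00290). IL6, the founding cytokine of the family, had 5.20 and 5.0 kb in pgEpiSC and 11.6 and 10.8 kb in pEF (log2 difference -1.0, limma adjusted p = 0.0238). CLCF1, a cytokine that acts through the CNTF receptor, was the exception with 25.95 and 25.55 kb against 17.75 and 13.95 kb (0.68, limma adjusted p = 0.0458). Over islands enriched at least 2-fold CLCF1 was longer in pEF instead (-1.23, limma adjusted p = 0.0313), and its call was lost after centring (0.045, adjusted p = 0.854). That of IL6 was lost with 5 kb flanks (adjusted p = 0.0646). OSM, which lies 3.25 kb from LIF and shares its window, had 6.43 and 6.60 kb against 6.23 and 5.83 kb, which did not pass (limma adjusted p = 0.693).

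Among 5 other receptors, 2 were longer in pgEpiSC and 3 did not pass. IL6R, the IL6-binding chain, had 30.6 and 22.2 kb in pgEpiSC and 6.20 and 8.0 kb in pEF (1.75, limma adjusted p = 0.0182). IL11RA, the IL11-binding chain, had 21.6 and 23.2 kb against 8.80 and 6.80 kb (1.42, limma adjusted p = 0.0144). Over islands enriched at least 2-fold both turned, to -2.45 and -0.88 (limma adjusted p = 0.0654 and 0.801). The 3 other kinases, JAK2, JAK3 and TYK2, did not pass in either direction, nor at an unadjusted p under 0.05.

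STAT factors other than STAT3 were longer in pgEpiSC in 3 of 6 cases. STAT5A is given above, and its neighbour STAT5B had 42.4 and 38.6 kb against 13.6 and 13.4 kb (1.51, limma adjusted p = 0.00504). Of 15 inhibitors and phosphatases, 4 were longer in pgEpiSC. SOCS7 had 38.2 and 42.3 kb against 9.0 and 7.40 kb (2.17, limma adjusted p = 0.00577) and SOCS5 had 43.2 and 40.2 kb against 17.4 and 11.8 kb (1.48, limma adjusted p = 0.0222), both members of the family of SOCS3. Over islands enriched at least 2-fold the calls of STAT5A, STAT5B, SOCS7 and SOCS5 were lost (limma adjusted p = 0.232, 0.210, 0.861 and 0.946). None of the 4 adaptors passed in limma, with 1 in each direction at an unadjusted p under 0.05, while 3 were longer in pEF after centring and 2 over islands enriched at least 2-fold.

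The 17 other STAT3 target genes split evenly, with 4 longer in each cell type and 9 that did not pass. KLF5, a pluripotency-associated zinc finger factor, had 33.0 and 26.8 kb in pgEpiSC and 6.60 and 10.2 kb in pEF (1.74, limma adjusted p = 0.0225). GBX2, a homeobox factor, had 2.20 and 3.60 kb in pgEpiSC and lacked islands in pEF (limma adjusted p = 0.0126). Its islands lay outside the gene body and under 2-fold enrichment, and the call was lost with 20 kb flanks (adjusted p = 0.0738), with an FDR under 1e-10 (adjusted p = 0.406) and without pEF 1 or pEF 2 (adjusted p = 0.0927 and 0.0934). CEBPD, a factor of the acute-phase response, had 2.20 and 2.60 kb against 11.5 and 13.5 kb (-1.99, limma adjusted p = 0.0112). BCL6, a transcriptional repressor, had 10.8 and 12.4 kb against 30.2 and 24.2 kb (-1.16, limma adjusted p = 0.0195). Over islands enriched at least 2-fold CEBPD and BCL6 were not called (limma adjusted p = 0.0898 and 0.0760), nor was KLF5 over the gene body (adjusted p = 0.0742). After centring the split of the targets was 2 longer in pgEpiSC and 7 in pEF. The 8 further list genes past the threshold, named after their values were seen, were STAT4, SOCS6, PTPN2, PIM3 and MYC, longer in pgEpiSC, and IL11, BCL3 and CEBPB, longer in pEF.

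**Figure D5:**
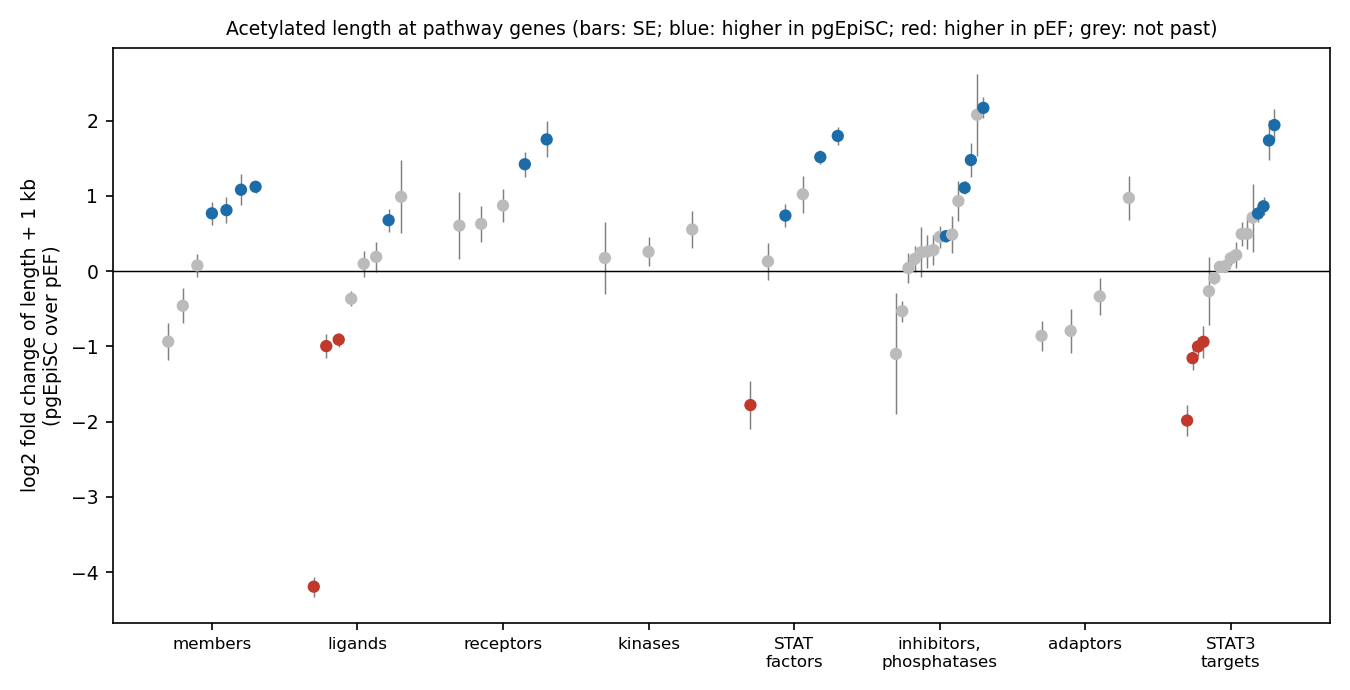
Log2 difference in acetylated length, pgEpiSC minus pEF, for the members and the other pathway genes, grouped by role. Each point is a gene with its SE as a bar, blue where limma called it longer in pgEpiSC, red where longer in pEF and grey where it did not pass. CNTF, among the ligands, is the lowest point, with no island in pgEpiSC, and SOCS7, among the inhibitors, is the highest at 2.17.

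Other genes on different chromosomes had length patterns close to those of the members, measured by Euclidean distance in log2(kb + 1) over the 4 libraries. The nearest were RANBP3L to LIF (0.141), SMARCD2 to IL6ST (0.123), TJAP1 to OSMR (0.0838), RETREG1 to JAK1 (0.278), REV3L to STAT3 (0.139), HBP1 to SOCS3 (0.0884) and PBXIP1 to PIM1 (0.116). Within a distance of 0.25 there were 3 genes for LIF, 2 for OSMR and none for JAK1, against 16 or more for each of the other 4 members. Windows of other genes reached into those of 5 members. Besides OSM, RAVER2 and STAT5A these were RICTOR beside OSMR and CAVIN1 beside STAT3, which did not pass limma's test (adjusted p = 0.0573 and 0.402), and PGS1 beside SOCS3, which was longer in pgEpiSC (0.46, limma adjusted p = 0.0350).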

How the data were processed

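ChIP and input DNA of 4 H3K27ac libraries and their 4 inputs was sequenced as paired-end reads, per the labels. BWA 0.7.15, SAMtools 0.1.19 and SICER 1.1 are named in the submitters' processing notes. Each library has its own deposited list of islands. The deposited count columns hold whole ChIP and input reads per island, the deposited fold column is their ratio scaled by 1 constant per library, and the deposited p-value and FDR columns were used only as a filter. The sources used here give neither the total depth per library nor the genome build. The Sscrofa11.1 table was set with the choice of loci, and no other build was compared. As a check, on 19 of 19 chromosomes islands held gene ends more often than points shifted by 20 kb.

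The members and lists were chosen with earlier results of these data known. For acetylated length, limma-trend (limma 3.58.1) was fitted to log2(kb + 1) over 16298 genes, with 2 residual degrees of freedom. Reads of islands merged at an overlap of 1 bp and called in all 4 libraries were tested by edgeR 4.0.16 (quasi-likelihood, TMM). Those sums move with how much was called in each library, so covered length and reads per covered kb are given beside them, chosen after seeing the data. Adjustment was by Benjamini-Hochberg over all genes or regions, at 0.05. Log2 differences of length are on the log2(kb + 1) scale and understate changes at short lengths. Gene-end islands lay within 2 kb of either end. Genes named were the members, up to 2 pathway genes per role and direction with the largest difference past the threshold, genes whose windows overlap a member's, and the nearest pattern per member. CTF1 and the marker KRT7 had no match. The result of 1 further pathway gene that the rule names is not reported here. Alternatives were other flanks, filters, pseudocounts, scalings, DESeq2 1.42.0 and leaving out each library, where the lone library left is assumed to vary like the other type. Scripts were tested on simulated data. R 4.3.3 and Python 3.11.15 were used.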

Additional observations from a re-analysis of the deposited data

How the results depend on the processing

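No paired analysis was possible because the pgEpiSC libraries are numbered 1 and 4 and the pEF libraries 1 and 2, so they share only number 1. Members longer in pgEpiSC numbered 4. There were 0 over the gene body alone and 0 after centring (limma, each with 1 at an unadjusted p under 0.05), 1 with islands of at least 2-fold enrichment, 2 with an FDR under 1e-10, 1 with the most enriched 200.0 Mb of islands per library (chosen after seeing the data), and 0 to 1 without one library. The 0 came without either pgEpiSC library, with 3 at an unadjusted p under 0.05 each, and PIM1 was the 1 gene left without either pEF library. Members longer in pEF numbered 0, and 1 with 20 kb flanks (SOCS3), 3 at 2-fold enrichment, 2 after centring, 1 with a mean of at least 1 kb (OSMR) and 1 over 200.0 Mb (OSMR). Pathway genes longer in pgEpiSC, 14, became 1 at 2-fold, 8 by FDR, 8 after centring, 4 over 200.0 Mb and 2 to 6 without one library; those longer in pEF, 8, became 4 over the gene body, 13 at 2-fold, 16 after centring and 1 without any one library. Over all genes, 5196 became 1150 at 2-fold, 1846 over 200.0 Mb and 1684 to 2188 without one library, and 1773 became 2692 at 2-fold, 3853 after centring and 548 to 829 without one library. Of the shared regions at members, 5 and 7 became 2 and 3 of 6 at 2-fold, and 1 to 5 and 4 to 7 without one library. Of all shared regions, 4705 and 4854 became 2414 and 2291 at 2-fold, and 1917 to 5157 and 2041 to 5032 without one library. DESeq2 gave 5 and 6 at the members. Gene ends in pEF only rose from 1 to 3 at 2-fold (LIF, OSMR and SOCS3). Single genes whose sign turned at 2-fold were JAK1 (-2.11), SOCS3 (-1.73), CLCF1 (-1.23), IL6R (-2.45), IL11RA (-0.88), STAT5B (-0.35) and SOCS7 (-0.16). Over 200.0 Mb they were JAK1 (-0.67), CLCF1 (-0.60), IL6R (-1.52) and SOCS7 (-0.16). SOCS3 also turned with 5 kb (-0.027) and 20 kb (-0.52) flanks, by FDR (-0.012), after centring (-0.56) and without pgEpiSC 1 (-0.065), where without pgEpiSC 4 it was 0.21. A 2-fold filter removes more pgEpiSC than pEF islands, since 37.1% and 27.8% against 84.7% and 85.6% reach it. Other causes were not tested. No shared region at a member turned direction without normalization factors, with DESeq2, with at least 100 ChIP reads in every library or without one library. Directions of single regions were not compared at 2-fold enrichment. Reads outside islands were not used here, so a weak signal below the calling limit counts as no length.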
